A study of Mus musculus with 6 samples.

Results

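Cycling corneal epithelial cells were defined as epithelial barcodes in which at least 3 of the 5 cycle genes Mki67, Top2a, Cenpf, Ube2c and Birc5 had a unique molecular identifier (UMI, 1 counted transcript molecule). Cells were thus selected on measured transcripts, and the values of these genes are no finding. To count as a cell, a barcode needed 500 or more UMIs, 250 or more genes and mitochondrial UMIs of 20% or less. It was taken as epithelial when Krt12, Krt5, Perp and Dapl1 together had at least 5 UMIs and at least 3 times the UMIs of the keratocyte genes Dcn, Lum, Kera and Col1a2. By this rule 541 of 15317 epithelial cells were cycling, among 63021 cells in all. The 13826 epithelial cells with none of the 5 genes served as the non-cycling cells. The 730 epithelial cells with 1 of the 5 genes and the 220 with 2 belonged to neither. A further 108 cells with at least 3 of the 5 genes lay outside the epithelial gate and were left out.

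The mice were naive females of mixed 129S2–C57BL/6 background. Corneal tissue anterior to the limbus was dissociated with DNase I and collagenase A, and dead cells were removed. Knockout (KO) mice, miR-183CGT/GT, lack the miR-183/96/182 microRNA cluster, and wild-type (WT) littermates served as controls. Whole-cornea libraries were made at 2 and at 6 months of age. At 6 months CD45-positive cells of the cornea (CRIC, its resident immune cells) were also enriched by magnetic sorting, and the epithelial cells in those libraries are the ones that remained after this enrichment. Each of the 6 groups held 1 library. Below, values by library follow the order 2-month WT, 2-month KO, 6-month WT, 6-month KO, CRIC WT and CRIC KO.

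The corneal epithelium is a stratified tissue in which division takes place in the basal layer, while daughter cells move up, differentiate and are shed from the surface. A dividing cell first licenses its replication origins by loading the MCM helicase, then copies its DNA under cyclin E and cyclin A kinases. It then enters mitosis under cyclin B and CDK1, builds a spindle, attaches chromosomes at the kinetochores, and leaves mitosis when the anaphase-promoting complex (APC/C), with Cdc20 or Cdh1, marks cyclin B and securin for destruction. Genes of origin licensing and replication are classically driven by E2F factors. Genes of mitosis are classically driven by the MuvB complexes with B-Myb and FoxM1 through the CHR promoter element, often beside a CCAAT box bound by NF-Y.

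The 3 microRNAs missing in the KO mice are shown because they define the genotype. Their mature sequences (RefSeq, GRCm38.p6, chromosome 6, minus strand) are given 5′ to 3′ with the seed, bases 2 to 8, in capitals.
mmu-miR-183-5p: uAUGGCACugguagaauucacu
mmu-miR-96-5p: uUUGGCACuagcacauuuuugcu
mmu-miR-182-5p: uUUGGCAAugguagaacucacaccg
They lie at chr6:30169711-30169732, chr6:30169506-30169528 and chr6:30165962-30165986. No complete seed is shared by a pair of them, but the 3 seeds are close to one another. Those of miR-96-5p and miR-182-5p differ only at base 8, and those of miR-96-5p and miR-183-5p only at base 2. The mature microRNAs carry no poly-A tail and are not counted in these libraries.

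3 promoters are shown as examples of early and late cycle genes whose promoters hold the letters searched for. Each runs from 250 bases before to 50 bases after the annotated start on the gene's own strand (RefSeq, GRCm38.p6, all 3 on the minus strand). Capitals mark CHR letters (TTTGAA or TTCGAA), the letters CCAAT, and E2F letters (TTTGGCGC, TTTCCCGC, TTTCGCGC or TTTGCCGC), searched on both strands, and 2 overlapping E2F matches of Mcm6 are drawn as 1 run.
Cdc20, chr4:118437294-118437593: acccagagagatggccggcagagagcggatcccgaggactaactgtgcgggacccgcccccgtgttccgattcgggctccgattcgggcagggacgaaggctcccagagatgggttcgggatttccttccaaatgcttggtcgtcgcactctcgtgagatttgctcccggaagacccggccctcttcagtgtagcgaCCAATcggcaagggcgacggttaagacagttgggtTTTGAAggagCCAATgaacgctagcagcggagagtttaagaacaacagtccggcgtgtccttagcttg
Ccnb2, chr9:70421505-70421804: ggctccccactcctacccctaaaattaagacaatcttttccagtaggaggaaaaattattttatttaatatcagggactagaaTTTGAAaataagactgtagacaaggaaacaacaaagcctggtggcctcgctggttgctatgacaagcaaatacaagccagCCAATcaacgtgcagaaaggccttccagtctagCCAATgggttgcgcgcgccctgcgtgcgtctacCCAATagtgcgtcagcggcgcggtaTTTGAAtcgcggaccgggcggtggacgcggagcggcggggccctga
Mcm6, chr1:128359656-128359955: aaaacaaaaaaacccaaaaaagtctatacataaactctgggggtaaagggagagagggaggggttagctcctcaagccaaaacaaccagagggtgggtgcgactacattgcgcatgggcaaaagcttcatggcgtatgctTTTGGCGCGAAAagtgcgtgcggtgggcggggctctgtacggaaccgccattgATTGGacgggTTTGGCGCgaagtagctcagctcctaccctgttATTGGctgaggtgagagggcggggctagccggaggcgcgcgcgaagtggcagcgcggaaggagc
In Cdc20, the activator of the APC/C, the CHR letters begin at position -18 from the start, between CCAAT letters at -53 and -8. Ccnb2, which encodes cyclin B2, has CHR letters at -167 and 5 and CCAAT letters at -87, -54 and -21. Mcm6, a subunit of the replicative helicase, has E2F letters at -110, -106 and -47, CCAAT letters on the opposite strand at -57 and -14, and no CHR letters in this window. Of the spindle and kinetochore genes listed, 63 of 73 matched the promoter table, with 70 promoters, and 65.7% of these held CHR letters and 51.4% held both CHR and CCAAT letters. Of the licensing and replication genes, 38 of 48 matched, with 47 promoters, of which 23.4% held CHR letters and 34.0% E2F letters. Over all 32851 promoters of the table the shares were 19.2% for CHR, 7.52% for CHR with CCAAT, and 2.26% for E2F. Other genes named below lacked such letters, since Pcna and Rrm2 had no E2F letters in this window and Ccnb1 no CHR letters. A match describes the letters and not a bound site.

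Library depth ran from 9827933 to 117613142 UMIs. The median cycling cell held 6104, 6508, 8441, 4513, 5991 and 6103 UMIs by library, against 5596, 5084, 9095, 4445, 4025 and 6845 in non-cycling cells. The number of genes per cell was higher in cycling cells in every library, with medians of 1653 to 2575 against 1141 to 1816. The library labelled 2-month KO stood apart from its label. Its epithelial cells held 1438 UMIs of Y-linked genes and those of the other 5 libraries held 0, although all mice were labelled female. Of its epithelial cells with at least 5000 UMIs, 13 of 583 with Y-linked UMIs alone were cycling (2.23%), and 39 of 1045 with Xist UMIs alone (3.73%). Of the cycling barcodes, 5 also named a cell in another library, and none named a cycling cell there.

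Markers of other cell types were measured in the cycling cells. Immune marker genes, 13 in the list, summed to 0 to 7.87 CPM (UMIs scaled to a library size of 1000000) in the cycling cells of 5 libraries, against 247 to 4965 in the free RNA of the same libraries. The CRIC KO cells were the exception. They held 483 UMIs of 10 of the 13 genes, or 1544 CPM, spread over 30.8% of the 39 cells, against 608 CPM in the non-cycling cells of that library and 13493 in its free RNA. The 12 keratocyte markers summed to 25.5 to 396 CPM, against 33.6 to 203 in non-cycling cells and 2379 to 13445 in free RNA. Their sum was higher in cycling than in non-cycling cells in every library except CRIC WT. The share of cells with any UMI of them was higher in cycling cells in every library, at 13.6% to 79.7% against 10.2% to 62.8%. These differences were not tested. The 10 markers of conjunctival and goblet cells had a higher sum in every KO library than in every WT library, a difference that was not tested. They summed to 46.0, 88.0 and 50.9 CPM in the WT libraries and to 292, 556 and 406 CPM in the KO libraries (2-month cornea, 6-month cornea and CRIC), against 646 to 1597 in non-cycling cells. Krt13 gave 238 of the 268 UMIs in 2-month KO cornea, 188 of 212 in 6-month KO cornea and 117 of 127 in CRIC KO. The share of cycling cells with any UMI of these markers was higher in KO in the 2-month pair alone. It was 22.1%, 32.4% and 27.3% in WT and 29.9%, 28.6% and 10.3% in KO. The goblet cell genes Muc5ac, Muc5b, Tff1 and Spdef were at 0 in the cycling cells of all 6 libraries. Pax6, the master regulator of eye development, and Epcam, an epithelial adhesion molecule, were not used by the rule. In cycling cells they averaged 502 and 410 CPM over the 6 libraries.

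The threshold of 3 genes cut through a gradient. Summed over libraries, Cdk1, the mitotic kinase, stood at 0.342 CPM in cells with none of the 5 genes, 3.29 with 1, 33.0 with 2, 46.1 with 3, 122 with 4 and 287 with all 5. Nusap1, a spindle-bundling protein, went from 48.1 CPM in cells with 2 genes, just outside the rule, to 121 in cells with 3, just inside it. Rrm2, the small subunit of ribonucleotide reductase, stood at 79.3 CPM with 2 genes and 129 with 3. Depth moved with these classes too, since the median cell held 3621 UMIs with 2 of the genes, 3955 with 3 and 9500 with all 5. The 220 cells just outside the rule thus held transcripts of these cycle genes, at lower levels than cells with 3. Their median depth was the shallowest of any class.

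The first question was how many epithelial cells were cycling and whether age or genotype went with it. Cycling cells made up 2.42% of epithelial cells in 2-month WT cornea (86 of 3558, 95% exact binomial interval 1.94 to 2.98) and 2.41% in 2-month KO cornea (117 of 4850, 2.00 to 2.88). They made up 6.33% in 6-month WT cornea (207 of 3269, 5.52 to 7.22) and 3.34% in 6-month KO cornea (70 of 2095, 2.61 to 4.20). In CRIC the shares were 3.67% in WT (22 of 599, 2.32 to 5.51) and 4.12% in KO (39 of 946, 2.95 to 5.59). The 6-month WT cornea stood above all the others, the 2-month libraries lay lowest, and the intervals, which cover counting error only, separated the 6-month WT cornea from the other 3 cornea libraries and CRIC WT but overlapped with that of CRIC KO. Over the 3 libraries of each genotype the share was 4.14% ± 2.00 in WT and 3.29% ± 0.856 in KO (SD, n = 3). The difference of -0.849 percentage points gave p = 0.6 in a two-sided exact permutation test, whose smallest possible p with 3 against 3 is 0.1. The KO minus WT difference was -0.00472 points at 2 months, -2.99 in 6-month cornea and 0.450 in CRIC, so it did not keep 1 sign over the pairs, and without 6-month WT cornea the overall difference was 0.247 points. Both 6-month cornea libraries lay above both 2-month ones, a difference that 2 libraries against 2 cannot put past a threshold.

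Detection of 3 genes grows with depth, so each epithelial cell of at least 2000 UMIs was thinned to 2000 and the rule applied again. The shares fell to 1.56%, 1.62%, 3.85%, 2.48%, 2.40% and 2.42%. The order of the cornea libraries by age was kept, and the KO minus WT difference was -0.432 points (p = 0.9, exact permutation test).

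**Figure D1:**
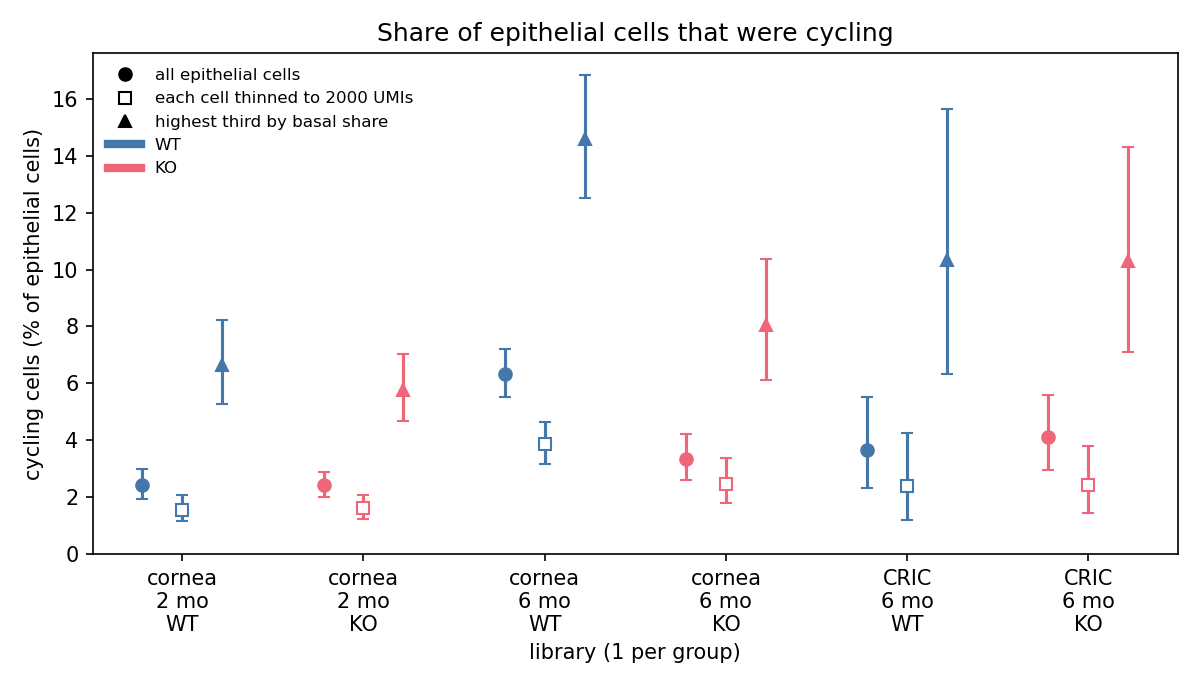
Share of epithelial cells that were cycling (y axis, percent) in each of the 6 libraries (x axis), for all epithelial cells (circles), for cells thinned to 2000 UMIs (open squares) and for the highest tertile of cells by basal share (triangles). Bars are 95% exact binomial intervals. The 6-month WT cornea is highest in each of the series, at 6.33%, 3.85% and 14.6%.

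Cycling cells were concentrated among basal-like cells. The basal share of a cell was defined as the UMIs of 16 basal adhesion genes (such as Krt14, Col17a1 and the integrin genes Itga6 and Itgb4) as a percentage of those plus the UMIs of a list of differentiation genes. In the highest tertile of each library by this share, 6.63%, 5.77%, 14.6%, 8.06%, 10.3% and 10.3% of the cells were cycling. In the middle tertile the shares were 0.690%, 1.08%, 4.56%, 1.64%, 0.543% and 1.33%. The lowest tertile held cycling cells only in 2-month KO cornea, at 0.444%, and 0 in the other 5 libraries. In 2-month WT cornea the median cell held 3689 UMIs in the highest tertile and 11761 in the lowest. Non-cycling cells in which Psca, which encodes a membrane-anchored protein, made up over 1% of UMIs were common, at 19.2% to 52.0% of non-cycling cells, whereas 14 of the 541 cycling cells were of this kind (2, 6, 4, 2, 0 and 0 by library).

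The second question was what set cycling cells apart in transcription. Counts were summed over the cycling and over the non-cycling cells of each library and fitted with edgeR's quasi-likelihood model, with the library as a block. Since the cells were sorted by cycle transcripts of the same libraries, the folds and calls of this contrast describe the cells chosen and are no independent evidence of division. Of 10420 genes, 2032 were higher (19.5%) and 2396 lower (23%) in cycling cells at an adjusted p under 0.05, 42.5% in all. All 6 cycling values lay above all 6 non-cycling ones for 21.2% of the genes tested, and below them for 6.4%. Of the 233 genes in the cycle lists outside the rule, all had UMIs in cycling cells and 219 were higher there in all 6 libraries, 181 of them with no overlap. In the fit, 204 of 230 were higher and 6 lower, with a median log2 fold of 3.06 against 0.09 over all genes tested.

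Genes of origin licensing and replication were higher in cycling cells, by smaller folds than the genes of mitosis that follow. The sizes of these folds are not independent of the rule, since the non-cycling cells were chosen to hold none of the 5 genes. Cells with 2 of the 5, at 79.3 CPM of Rrm2 and 48.1 of Nusap1, were in neither group. Of 29 replication genes all 29 were higher, at a median log2 fold of 2.40, and of 18 licensing genes tested 17 were, at 2.09. Mcm6 stood at 35.0, 27.2, 27.6, 28.8, 25.5 and 9.59 CPM in cycling cells by library and at 1.32 to 3.81 CPM in non-cycling cells. No cycling library reached down to the non-cycling ones, and CRIC KO was the lowest of the 6. Pcna, the sliding clamp of DNA polymerase, stood at 36.8, 35.9, 27.6, 21.0, 38.2 and 9.59 CPM against 2.99 to 8.58, with the lowest cycling library again CRIC KO. Rrm2 stood at 153, 110, 130, 86.5, 121 and 76.7 CPM against 1.43 to 3.43, a log2 fold of 4.69 ± 0.22 (SE). Ccne2, cyclin E2, stood at 9.59 to 25.5 CPM against 0.373 to 1.14.

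The genes of mitosis were nearly absent from non-cycling cells. Of 33 kinetochore and centromere genes 32 were higher, at a median log2 fold of 6.26, and of 40 spindle genes 38 were higher and 1 was lower, at 6.56. Cdk1 stood at 221, 210, 189, 265, 146 and 182 CPM in cycling cells and at 0.261, 0.269, 0.474, 0.615, 0 and 0 in non-cycling cells. Ccnb1, which encodes cyclin B1, the partner of Cdk1, stood at 208, 173, 195, 178, 95.5 and 249 CPM against 0 to 0.868. Nusap1 stood at 460, 360, 340, 446, 465 and 614 CPM against 0.178 to 1.49, a log2 fold of 9.49 ± 0.28 (SE). For all 3 genes the 2 states did not overlap in any library, and the cycling libraries lay within a few fold of one another. Aurkb, the kinase of the chromosomal passenger complex, stood at 28.8 to 123 CPM in cycling cells. It had UMIs in the non-cycling cells of the 2-month libraries alone, at 0.0434 CPM in WT and 0.0337 in KO, or 1 UMI each. Foxm1, the forkhead factor that drives mitotic genes, averaged 34.6 CPM against 0.152. The spindle gene that was lower was the tubulin gene Tubb4b, described below.

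At a common depth of 2000 UMIs per cell, Nusap1 was seen in 34.9% to 58.6% of the cycling cells and Cdk1 in 23.1% to 31.6%. In non-cycling cells Nusap1 was seen in 0% to 0.154% and Cdk1 in 0% to 0.134%. The contrast was therefore visible per cell as well as in the sums.

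The genes that end mitosis and those that hold the cycle back were also high. Cdc20 stood at 228, 282, 342, 244, 89.2 and 240 CPM in cycling cells against 0 to 0.438, with CRIC WT the lowest. Of 11 APC/C genes 9 were higher and 1 lower. Of 14 cycle inhibitors 7 were higher and 3 lower. Cdkn3, a phosphatase that acts on cyclin-dependent kinases, stood at 102 to 223 CPM against 0 to 0.794. Cdkn2d (p19Ink4d) stood at 107, 95.7, 97.3, 86.5, 70.1 and 54.4 CPM against 2.98 to 7.88, and Cdkn2c (p18Ink4c) at 28.8 to 66.3 against 2.99 to 7.81. Cdkn1b (p27Kip1) stood at 173 to 233 CPM against 48.1 to 76.5, with no overlap of the states. The kinase inhibitors of these families were thus present in the cells that carried mitotic transcripts. Cdkn1a (p21), a p53 target, overlapped between states, with 179 to 306 CPM in cycling and 135 to 513 in non-cycling cells.

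**Figure D2:**
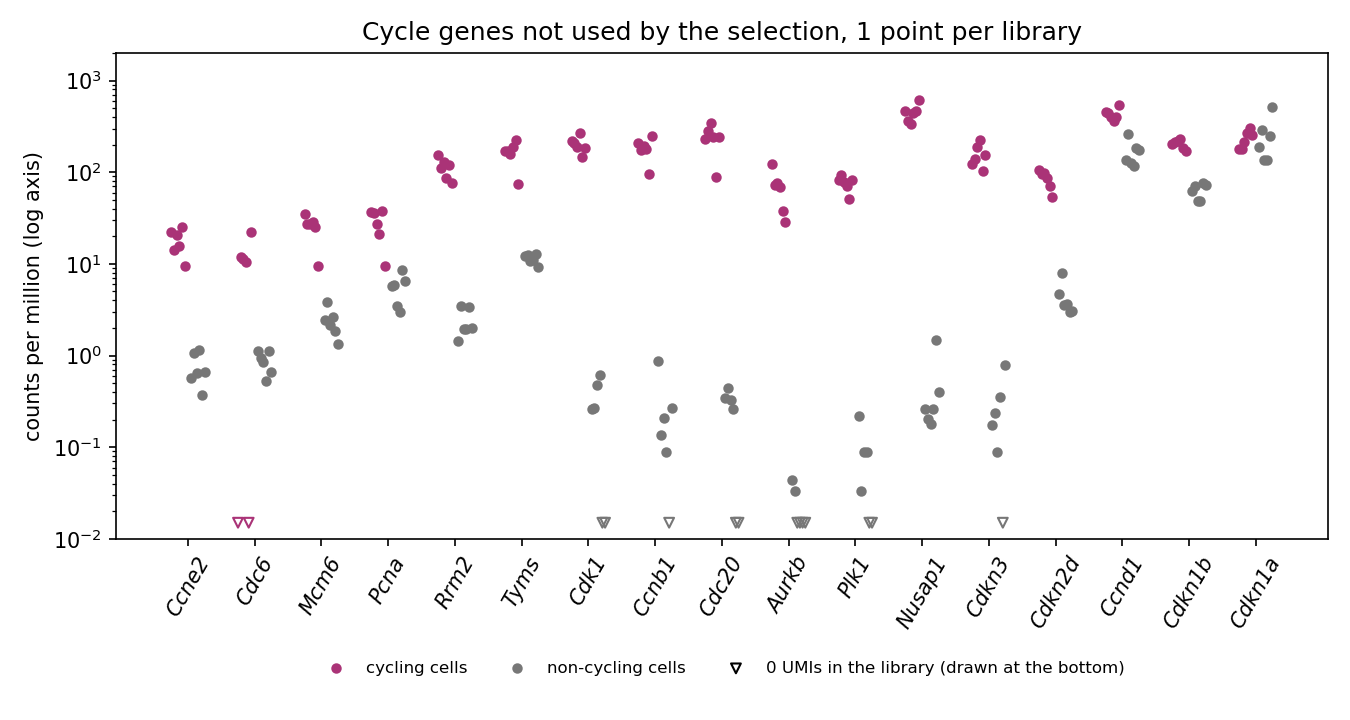
CPM (log axis) of 17 cycle genes that the selection did not use, 1 point per library, in cycling cells (purple) and non-cycling cells (grey). Triangles at the bottom mark libraries with 0 UMIs. Mitotic genes such as Aurkb and Cdk1 are separated by far more than replication genes such as Pcna, and Cdkn1a overlaps.

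Outside the cycle and repair lists, most of the 12 genes with the largest rise were also of division, among them Depdc1a, Pbk, a mitotic kinase, Knstrn, a spindle protein, and Kif14, a kinesin of cytokinesis. Depdc1a averaged 65.7 CPM against 0.0147, the largest log2 fold of the group at 10.78. Ptn was a different kind of gene, since it encodes pleiotrophin, a secreted heparin-binding growth factor. It stood at 114, 76.2, 132, 89.2, 57.3 and 44.8 CPM in cycling cells against 0.912, 1.01, 1.30, 0.176, 0.746 and 1.46 in non-cycling cells (log2 fold 5.56 ± 0.27, SE), with no overlap. The 12 with the largest fall were led by genes of differentiated epithelium, such as the cornified envelope genes Crct1, Cnfn, Lce3a, Lce3b and Lce3f. Crct1 averaged 1.53 CPM in cycling cells and 989 in non-cycling cells, and was at 0 in 3 of the 6 cycling sums. S100a9, an alarmin of stressed epithelium, averaged 34.6 against 1085 CPM. Of 33 differentiation genes 29 were lower and none higher, at a median log2 fold of -3.01.

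For genes outside the cycle this contrast depended on the scale. The 20 most abundant genes took 17.5% to 21.8% of the UMIs of cycling cells and 29.4% to 44.4% of those of non-cycling cells, in which Psca alone took 1.85% to 7.05%. The TMM scaling used here placed folds 0.97 lower on the log2 scale than the ratio of raw CPM. With total UMIs alone, 6154 genes were higher and 1088 lower, so that 85.0% of the calls were higher against 45.9% with TMM. Cycle genes were higher under both, with 219 of 230 higher with total UMIs alone.

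The comparison was therefore repeated within the highest tertile of cells by basal share, a choice made after seeing the data. It set 429 basal-like cycling cells against 4009 non-cycling ones. There 943 of 8711 genes were higher (10.8%) and 695 lower (7.98%), 18.8% in all, and total UMIs alone gave nearly the same split, 973 and 675. Of the genes called in the full comparison, 764 were called higher and 361 lower again, while 12 went from higher to lower and 37 from lower to higher. Cycle genes remained far apart, with 199 of 224 higher and 4 lower at a median log2 fold of 2.59 against -0.05 over all genes. Among them were all 40 spindle genes and 32 of 33 kinetochore genes. Cycling cells were deeper than their non-cycling partners in this tertile, at medians of 4155 to 7844 against 2557 to 4642 UMIs.

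**Figure D3:**
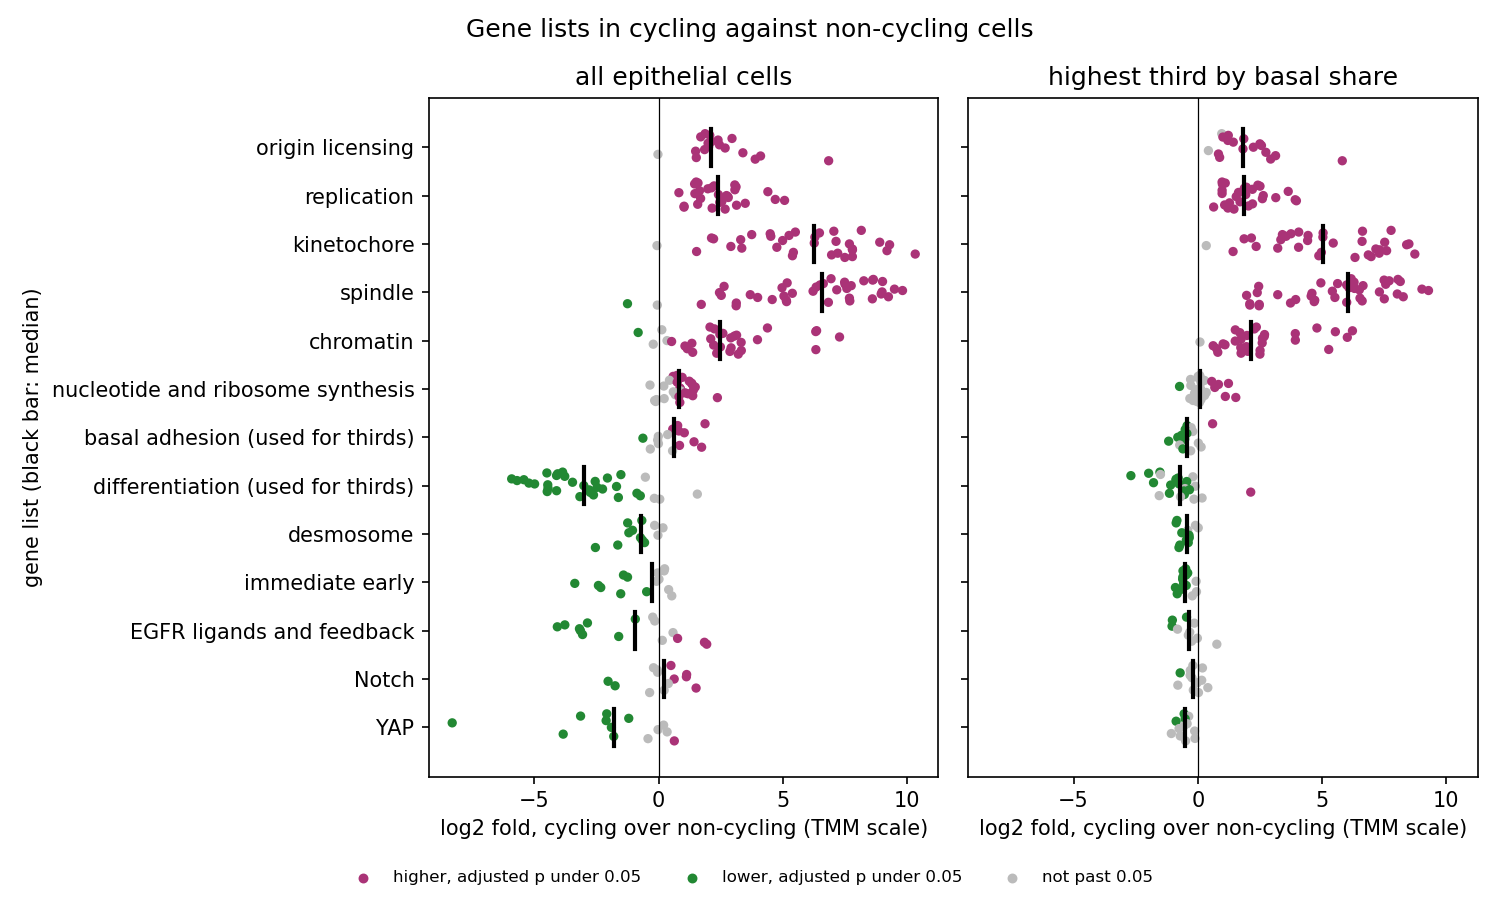
Log2 fold of cycling over non-cycling cells (x axis) for each gene of 13 lists (y axis), in all epithelial cells (left) and within the highest tertile by basal share (right). Points are genes, coloured by direction where the adjusted p was under 0.05, and black bars are list medians, which for spindle genes lie at 6.56 and 6.04. The basal adhesion and differentiation lists were used to form the tertiles, so their right-hand values are no result.

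Within basal-like cells, 12 of 20 cyclin and cyclin-dependent kinase genes were higher in cycling cells, 3 were lower and 5 were not called. The 3 that were lower were Ccnd1, Ccnd2 and Cdk6, and Myc was the 1 other cycle-list gene called lower. Ccnd1, which encodes cyclin D1, the partner of CDK4 and CDK6, stood at 469, 488, 418, 405, 387 and 594 CPM in cycling cells and at 620, 772, 726, 709, 685 and 636 in their non-cycling partners. It was lower in all 6 libraries and the states did not overlap (log2 fold -0.62 ± 0.09, SE). Ccnd2 stood at 23.1, 19.0, 33.7, 15.3, 21.9 and 3.88 CPM against 61.2, 82.2, 84.9, 27.7, 56.5 and 75.6, again lower in all 6 (log2 fold -1.65 ± 0.23). Cdk6 (-0.96 ± 0.22) was lower in all 6, and the growth regulator Myc (-1.49 ± 0.33) in 5 of the 6. In the full comparison Ccnd1 had been higher, at 0.46, so its direction rested on which non-cycling cells were used. Of 14 inhibitors 7 were higher and none lower, while the 3 that had been lower in the full comparison (Cdkn1a, Cdkn2b and Btg2) were not called. Cdkn1b was among those higher, at 171 to 290 against 79.8 to 134 CPM. Cdkn2a (p16Ink4a and p19Arf) was scarce, at 3.17 to 20.2 CPM against 0 to 0.784, and higher in all 6.

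Immediate-early genes were lower in the same comparison. Of 14 immediate-early genes 11 were lower and none higher, at a median log2 fold of -0.53, and with total UMIs alone the counts were the same. Zfp36, which speeds decay of inflammatory mRNAs, stood at 92.5, 105, 165, 115, 73.1 and 58.2 CPM against 164, 220, 305, 156, 131 and 146, lower in all 6 (-0.90 ± 0.13). Egr1 (-0.61 ± 0.11) and Junb (-0.48 ± 0.09) were lower in 5 of 6 libraries and Fos (-0.49 ± 0.10) in 4 of 6. In the full comparison 7 of the 14 had been lower with TMM, and 8 higher and 5 lower with total UMIs alone. Of 10 genes of EGF-receptor ligands and feedback 3 were lower, among them Hbegf, an EGF-family growth factor, at 41.2 to 117 against 82.7 to 178 CPM, and Erbb2, a receptor of the family, at 7.31 to 28.4 against 25.8 to 40.0. Immediate-early genes are induced during enzymatic dissociation of tissue, and the part of dissociation in this difference was not tested.

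Adhesion genes followed the same direction. Of 12 desmosome genes 9 were lower and none higher, at a median log2 fold of -0.43. Dsp, desmoplakin, stood at 904, 855, 935, 825, 1082 and 1389 CPM in cycling cells against 1708, 1756, 1443, 1165, 2215 and 2333, lower in every library though the ranges overlapped (-0.84 ± 0.08). The list was lower in the full comparison as well, with 9 of 12, but with total UMIs alone 3 of its genes were higher and 2 lower there.

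Of 16 limbal stem cell genes 5 were lower in the basal-like comparison and none higher. Gpha2, a marker of quiescent limbal stem cells, stood at 11.5 to 39.6 CPM in cycling cells and at 30.8 to 110 in non-cycling ones, lower in all 6 libraries (-0.88 ± 0.24). Igfbp5 (-1.26 ± 0.16) was lower in 5 of 6. Trp63, the factor that maintains stratified epithelium, was slightly lower (-0.35 ± 0.12, in 4 of 6), whereas it was higher in the full comparison at 0.65. Krt15, a basal limbal keratin, was not called (-0.67 ± 0.47). Its levels rested on CRIC, where non-cycling cells held 241 and 73.9 CPM against 2.87 to 9.28 in cornea.

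Other genes were higher in cycling basal-like cells. Epcam stood at 397, 534, 392, 462, 292 and 500 CPM against 168, 213, 130, 109, 89.8 and 139, with no overlap (1.57 ± 0.11). Of 28 genes of nucleotide and ribosome synthesis 6 were higher and 1 lower. Ran, the nuclear transport and spindle GTPase, stood at 373 to 649 against 151 to 272 CPM (1.23 ± 0.10), and Ptma, prothymosin alpha, at 2320 to 3648 against 886 to 1160 (1.53 ± 0.08). The median of that list, at 0.09, was close to that of all genes. Glycolysis was split, with 3 of 13 genes higher and 3 lower. Aldoa, an aldolase, was lower at 42.0 to 87.9 against 128 to 298 CPM (-1.76 ± 0.14), Hk2, a hexokinase, was lower (-1.59 ± 0.23), and Tpi1, triosephosphate isomerase, was higher (0.55 ± 0.13). Ptn kept its difference, at 50.4 to 150 against 1.42 to 9.15 CPM (4.32 ± 0.25).

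Tubb4b and Tuba1c show how the choice of partner cells matters even for spindle genes. Tubb4b averaged 1094 CPM in all cycling cells and 1337 in all non-cycling cells (log2 fold -1.25). Within the highest tertile it stood at 1053, 1328, 1018, 1207, 928 and 753 CPM against 191, 240, 274, 263, 182 and 305, with no overlap (2.09 ± 0.11). Tuba1c had a log2 fold of -0.06 in the full comparison and averaged 201 against 47.1 CPM within that tertile, with no overlap. Non-cycling cells outside the highest tertile thus held these tubulin mRNAs at high levels. The linker histone gene Hist1h1c changed sides in the same way, from -0.83 to 1.69.

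The third question was whether KO and WT cycling cells differed. The balance of the cycle was measured as the UMIs of licensing and replication genes as a percentage of those plus the UMIs of kinetochore, spindle and APC/C genes, leaving out the 5 genes of the rule. In WT libraries this replication share was 17.7% (2-month cornea), 16.6% (6-month cornea) and 17.0% (CRIC). In KO libraries it was 14.2%, 14.7% and 11.2%. Every KO library lay below every WT library, at 13.4% ± 1.88 against 17.1% ± 0.554 (SD, n = 3). The difference of -3.73 points gave p = 0.1 in a two-sided exact permutation test, the smallest p that 3 libraries against 3 allow, so it cannot pass 0.05 in this design. The pair differences were -3.45 points at 2 months, -1.92 in 6-month cornea and -5.81 in CRIC. Without the library labelled 2-month KO the difference was -4.16 points, and without the 14 cells rich in Psca it was -3.71. Within the highest tertile by basal share it was -2.99, and every KO library again lay below every WT library. Leaving the tubulin genes out of the mitosis UMIs, a choice made after seeing the data, gave -4.07 points. The pair differences were then -3.70 at 2 months, -1.02 in 6-month cornea and -7.49 in CRIC. When each cell counted equally the difference was -2.50 points (p = 0.2, exact permutation test), and the ranges then overlapped, at 11.8% to 16.5% in KO and 15.9% to 18.0% in WT.

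**Figure D4:**
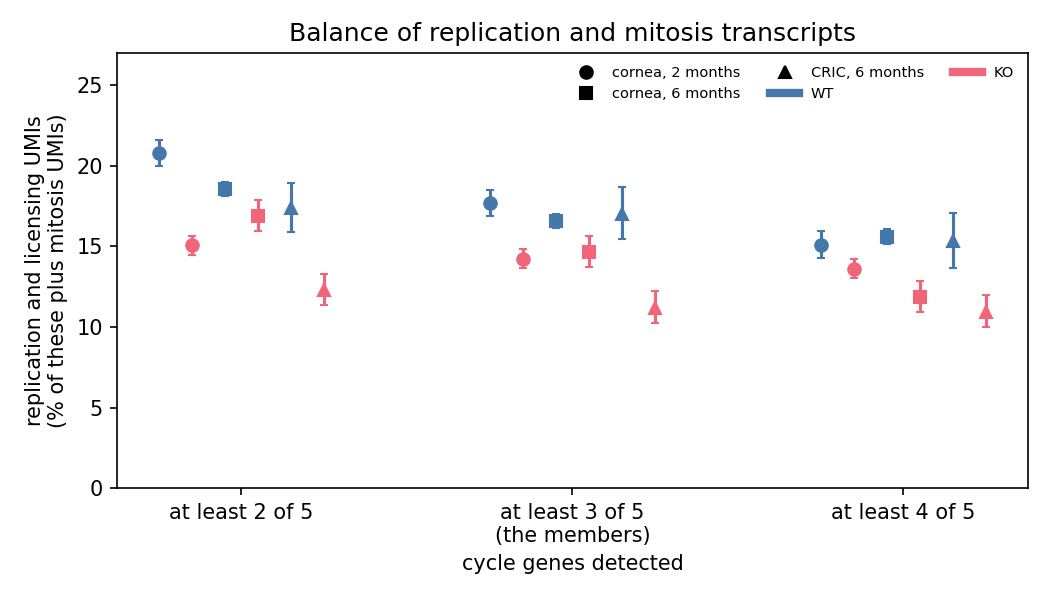
Licensing and replication UMIs as a percentage of those plus mitosis UMIs (y axis) in each library, for cells with at least 2, 3 or 4 of the 5 cycle genes (x axis). Bars are 95% exact binomial intervals, which cover counting error only. With at least 3 genes the KO libraries lie at 11.2% to 14.7% and the WT libraries at 16.6% to 17.7%.

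Single genes of the cycle lists did not pass the test between genotypes. With age and material as a block, 0 of 194 cycle-list genes were called, at a median log2 fold of -0.09. The medians were -0.43 over 25 replication genes and -0.45 over 9 licensing genes, against -0.07 over 31 kinetochore genes, 0.08 over 38 spindle genes and 0.01 over all 5740 genes. Mitosis UMIs, which include those of tubulin genes, outnumbered replication UMIs in nearly every cell. Only 12 of the 541 cells held more replication than mitosis UMIs (1, 4, 3, 3, 1 and 0 by library). This balance is not independent of the rule that chose the cells. The replication share fell in every library as more of the 5 genes were required. In 2-month WT cornea it was 20.8%, 17.7% and 15.1% with at least 2, 3 and 4 of them. Of 7 tested genes reported in earlier work as targets of the cluster none was called, at a median log2 fold of 0.00.

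Across all genes, 15 of 5740 were called higher in KO cycling cells (0.261%) and none lower, by edgeR's quasi-likelihood test at an adjusted p under 0.05. At an unadjusted p under 0.05 there were 299, of which 187 were higher. None of the 15 belonged to the cycle lists, but these lists do not hold every gene linked to the cycle. Mad2l1bp, named for binding the checkpoint protein Mad2, and Gadd45a, a growth-arrest gene, were among the 15. By pair (2-month cornea, 6-month cornea and CRIC), Mad2l1bp stood at 7.36, 15.1 and 0 CPM in WT and 44.6, 86.5 and 3.20 in KO. Gadd45a stood at 22.1, 44.8 and 12.7 CPM in WT and 173, 94.4 and 12.8 in KO. Krt13, a keratin of stratified mucosal epithelium, stood at 14.7, 16.1 and 0 CPM in the WT libraries of 2-month cornea, 6-month cornea and CRIC, and at 259, 493 and 374 in the matching KO libraries. All KO values lay above all WT values (log2 fold 4.95, adjusted p = 2.2e-08, edgeR). Of all genes tested, 3.36% had every KO value above every WT value and 5.45% had every KO value below. Pglyrp1, an antibacterial peptidoglycan-binding protein, stood at 77.3, 225 and 44.6 CPM in WT and 348, 868 and 150 in KO, higher in all 3 pairs though the genotypes overlapped (2.09). Ly6a, a membrane protein known as Sca-1, stood at 179, 332 and 0 CPM in WT and 1312, 1463 and 25.6 in KO (2.62). Psca stood at 3736, 2912 and 12.7 against 7918, 7912 and 141 CPM (1.51), but with cells of at least 2 of the 5 cycle genes its log2 fold was -0.54. Gsto1, a glutathione transferase, Elf3, an epithelial differentiation factor, and Mal, an apical membrane protein, were higher in all 3 pairs, at log2 folds of 1.35, 1.23 and 1.17. Of the 15 genes, 1 was also called with cells of at least 2 of the 5 cycle genes, where 5 were called in all, and 1 with no block for age and material, where it was the only call. Krt13 is also 1 of the conjunctival markers whose sum differed between genotypes, and the part of such cells in these differences was not tested.

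These differences rested on few cells. The 3 cells with most Krt13 held 81.9% of its 238 UMIs in 2-month KO cornea, 98.9% of 188 in 6-month KO cornea and 100% of 117 in CRIC KO, where 2 of 39 cells had any. The 3 top cells held 97.5% of the 558 Ly6a UMIs in 6-month KO cornea and 99.4% of the 3017 Psca UMIs. For Mad2l1bp and Gadd45a the 3 top cells of that library held 93.9% of 33 and 94.4% of 36 UMIs. Removing the 14 cells rich in Psca, a choice made after seeing the data, took Krt13 to 3.91 and 8.21 CPM in WT cornea and 8.81 and 8.72 in KO cornea. Ly6a then stood at 39.1 and 42.7 CPM in WT cornea and 15.1 and 46.5 in KO cornea, and its log2 fold was -0.09. In that comparison 9 genes were called, of which Mal and Pglyrp1 were among the 15. Mal then stood at 497, 489 and 357 CPM in WT and 769, 942 and 1480 in KO, so that every KO library lay above every WT library. Pglyrp1 then stood at 9.78, 30.1 and 44.6 CPM in WT and 5.04, 137 and 150 in KO, lower in KO in the 2-month pair. In CRIC KO the 3 top cells held 75.4% of the 463 Mal UMIs and 91.5% of the 47 Pglyrp1 UMIs. The CRIC cells lost none by this step, and the CRIC KO cells that carried immune markers remained in it. The part of doublets, in which a cycling cell shares its droplet with a differentiated or an immune cell, was not tested.

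**Figure D5:**
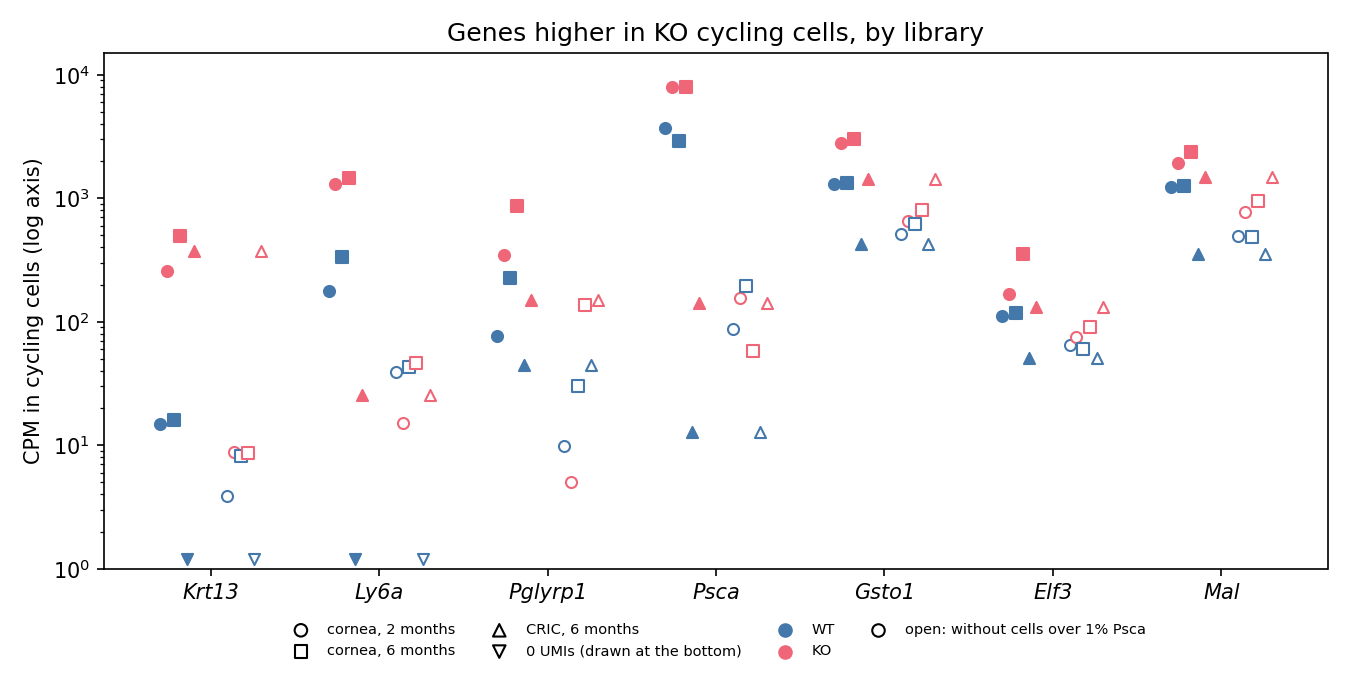
CPM in cycling cells (log axis) of the 7 genes higher in KO that were named by rule (x axis), by library, with all cycling cells (filled) and without cells in which Psca exceeded 1% of UMIs (open). Krt13 in 6-month KO cornea drops from 493 to 8.72 CPM, while Mal stays higher in each KO library than in its WT partner.

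The fourth comparison set 6-month against 2-month cycling cells of the 4 cornea libraries, with genotype as a covariate. It called 6 genes higher (0.0901%) and 7 lower (0.105%) of 6659, 0.195% in all, by edgeR's quasi-likelihood test, and 392 passed an unadjusted p under 0.05. Jun, an immediate-early gene, stood at 486 and 467 CPM at 2 months and 925 and 871 at 6 months (log2 fold 0.98 ± 0.21, SE, adjusted p = 0.018). Nfkbia, the inhibitor of NF-kB, stood at 112 and 114 CPM against 273 and 254 (1.28 ± 0.23). Ybx1, an RNA-binding protein, stood at 709 and 742 against 342 and 330 CPM (-1.04 ± 0.21), and Taf10, a subunit of TFIID, at 149 and 175 against 51.0 and 78.7 (-1.31 ± 0.26). In each of these 4 genes the WT and KO libraries of an age lay close together and apart from the other age. The CRIC cells, also of 6 months, went with the older cornea for Jun, at 923 and 700 CPM, but not for Ybx1, at 1115 and 841, or Taf10, at 159 and 256. For Nfkbia they stood at 25.5 CPM in WT, below both ages, and 179 in KO, between them. Non-cycling cells showed the same order for Ybx1, at 299 and 401 against 133 and 133 CPM, and for Taf10, at 92.2 and 111 against 22.2 and 20.9.

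Of the cycle and repair genes, Topbp1, a replication checkpoint protein, was lower at 6 months (75.5 and 80.5 against 33.8 and 15.7 CPM, -1.49 ± 0.34). Hist1h4d, a replication-dependent histone gene, was lower as well (193 and 118 against 71.3 and 57.7 CPM, -1.23 ± 0.26). The CRIC libraries were split, since WT cells, at 76.4 and 223 CPM, lay with the younger cornea for both genes and KO cells, at 32.0 and 41.6 CPM, did not. Of 211 cycle-list genes tested 1 was called, at a list median of -0.15. Spata7 was led by 1 library, at 168 CPM in 2-month WT cornea against 0 to 19.6 elsewhere, where 3 cells held 76.9% of its UMIs. Krt7, a simple-epithelial keratin, stood at 44.2 and 72.9 CPM at 2 months and 3.64 and 5.24 at 6 months, and its UMIs in 2-month WT came from 2 cells. Krt7 was also the 1 gene of 11525 (0.00868%) whose change with age was called as differing between cycling and non-cycling cells, which held 291 and 293 CPM at 2 months and 344 and 531 at 6 months. The age calls were fragile. With RLE scaling 0 genes were called, and 328 passed an unadjusted p under 0.05. DESeq2 called 6. Age and library cannot be told apart with 1 library in each group.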

How the data were processed

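The members and gene lists were chosen with earlier results of these data known. The deposited matrices hold raw UMI counts per gene and barcode with no normalization. They were made with Cell Ranger on build mm10, version 2.1.1 per the submitters' processing notes and 6.0.1 per the file headers. For the alignment settings and the annotation, no statement was found in the labels or headers. The kit is the second version of the 10x 3′ chemistry per the labels.

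UMI counts were summed per library over cycling and non-cycling cells. They were tested with the edgeR 4.0.16 quasi-likelihood model (glmQLFit, TMM, filterByExpr, Benjamini-Hochberg adjusted p under 0.05; R 4.3.3), in which the 13 genes of the rule counted in library sizes and were not tested. Standard errors are the log2 fold over the square root of F. Residual degrees of freedom were 5 for cycling against non-cycling, 2 for genotype and 1 for age. Shares were compared over libraries with exact permutation tests (scipy 1.17.1, Python 3.11.15). Nothing states that libraries came from separate animals, so p-values measure only the spread between these samples. Doublets were not removed.

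Outside the cycle and repair lists, genes were named by size: the 12 highest and 12 lowest folds called with the same sign in every library at a mean of at least 20 CPM, and for genotype and age the 10 largest called folds with the same sign in every pair. Other genes come from the lists or were chosen after their values were seen, namely Jun, Ybx1, Tuba1c and the further genes called between genotypes. Alternatives were DESeq2 1.42.0, RLE scaling, no low-count filter, other gates and thresholds, depth matching, no block, and each library left out. On simulated counts with a log2 change of 2, 83% of changed genes were recovered for cycling against non-cycling, 89% for genotype and 89% for age. With a change of 1, these were 48%, 24% and 14%. The simulation gave every gene the same dispersion and let libraries differ only in depth, so these rates need not hold for the real counts.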

Additional observations from a re-analysis of the deposited data

Results flagged for a closer look

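Whether KO and WT differed more in cycling than in non-cycling cells was tested with an interaction term in edgeR's quasi-likelihood model, which called 13 of 10420 genes (0.125%), all with a larger KO minus WT difference in cycling cells. At an unadjusted p under 0.05 there were 560 genes, of which 447 went in this direction. Krt13 led by its counts, with a log2 interaction of 5.094. It stood at 14.7, 259, 16.1, 493, 0 and 374 CPM in cycling cells by library (in the order of the results) and at 782, 656, 1167, 1567, 583 and 925 in non-cycling cells. KO cycling cells thus lay nearer to the level of non-cycling cells than WT cycling cells did. Pglyrp1 (2.02), Gsto1 (1.714) and Elf3 (1.605) followed the same pattern. The other genes were at low counts in cycling cells, namely Slc39a4 (4.314), Tspan1 (3.735), Defb14 (5.276), Sgms2 (3.59), Mad2l1bp (2.686), Ctss (3.667), Pbp2 (3.007) and Muc1 (4.772). Ripply3 was at 0 in all 3 WT libraries and in CRIC KO, and at 18.5 and 39.3 CPM in the cornea KO libraries (adjusted p = 0.002723, edgeR). Its 17 UMIs in 2-month KO came from 5 cells and its 15 UMIs in 6-month KO from 2. With cells of at least 2 of the 5 cycle genes the interaction called 0 genes, with 401 at an unadjusted p under 0.05, and without cells rich in Psca it called 9, of which 1 was among the 13.

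The interaction of state with age called 1 of 11525 genes (0.00868%), Krt7, at a log2 value of -4.915. It stood at 44.2, 72.9, 3.64 and 5.24 CPM in the cycling cells of the 4 cornea libraries and at 291, 293, 344 and 531 CPM in non-cycling cells.

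The library labelled 2-month KO held 1438 UMIs of Y-linked genes in its epithelial cells, and the other libraries, all labelled female, held 0. Of its epithelial cells with at least 5000 UMIs, 5 of 37 with both Y-linked and Xist UMIs were cycling, or 13.5% (95% exact binomial interval 4.54 to 28.8).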

How the results depend on the processing

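For cycling against non-cycling cells, 4428 genes were called. The count was 2444 without cells rich in Psca, 1638 within the highest tertile by basal share, 7242 with total UMIs alone and 1648 with both of the last choices, and 3509 to 4486 with 1 library left out. Single genes that changed direction were, without Psca-rich cells, Ccnd1 (-0.0070), Pax6 (-0.021), Tubb4b (1.26) and Hist1h1c (1.47). Within the highest tertile, with TMM and with total UMIs alone, they were Ccnd1 (-0.62 and -0.59), Cdkn1a (0.0089 and 0.027), Trp63 (-0.35 and -0.34), Pax6 (-0.040 and -0.014), Tubb4b (2.09 and 2.12), Hist1h1c (1.69 and 1.70), Col17a1 (-0.43 and -0.41) and Itgb4 (-0.44 and -0.42). With total UMIs alone on all cells, Cdkn1a (0.036) and Hist1h1c (0.16) did. Col17a1 and Itgb4 belong to the basal adhesion list used to form the tertiles, so their values within the highest tertile are no result. Of the other values of named genes in this comparison, 1016 kept direction and call, 36 lost the call and 5 gained it. Between genotypes 124 kept both and 59 lost the call, and by age 58 and 57.

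Between genotypes 15 genes were called. The count was 37 with no low-count filter, 5 with at least 2 of 5 genes, 9 without Psca-rich cells, 1 with no replicate block and 42 in the 4 cornea libraries. It ran from 16 to 55 with 1 library left out, at 32 without 6-month WT cornea, 29 without 6-month KO cornea, 55 without CRIC WT and 47 without CRIC KO. Ly6a reversed without Psca-rich cells (-0.093), and Psca (-0.54) and Cysrt1 (-0.21) with at least 2 of 5. By age 13 genes were called, against 6 by DESeq2, 0 with RLE (328 at an unadjusted p under 0.05), 24 unfiltered, 5 with at least 2 of 5, 21 without Psca-rich cells, and 11 to 119 with 1 library left out (119 without 6-month WT, 50 without 6-month KO, where Pglyrp1 reversed to -0.00166, within a range up to 2.94).

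State by genotype called 13 genes, against 4 by DESeq2, 107 unfiltered, 0 with at least 2 of 5 (401 at an unadjusted p under 0.05) and 1 to 328 with 1 library left out (1 without 6-month WT, 328 without 6-month KO). State by age called 1 gene, against 117 by DESeq2, 144 unfiltered, 60 without Psca-rich cells and 11 to 573 with 1 library left out. The cause was not tested for any of these. The KO minus WT difference in replication share stayed negative in all settings run, at -4.38 to -2.50 points. That in the share of cycling cells moved by less than 1 SD but turned positive without 6-month WT cornea (0.247 points, thinned 0.190) and thinned to 1000 UMIs (0.135). No paired analysis by replicate number was possible because the labels number no replicates, so age and material formed the block. Depth limits genes at few UMIs, above all in CRIC WT with 22 cycling cells.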

Other observations

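Several gene groups showed small or no differences within basal-like cells. Of 81 ribosomal protein genes 9 were higher in cycling cells of the highest tertile and none lower, at a median log2 fold of 0.08 against -0.05 over all genes, and with total UMIs alone 19 were higher. Of 12 Notch pathway genes 1 was called (Jag1, a Notch ligand, lower at 21.9 to 77.6 against 74.8 to 112 CPM), and of 13 Wnt genes 1 was lower. Of 12 genes of the Hippo and YAP pathway 3 were lower, among them Cyr61, a secreted YAP target, at 43.9 to 144 against 110 to 285 CPM, lower in all 6 libraries. Of 12 circadian clock genes 3 were lower and none higher. Arntl, which encodes the clock activator BMAL1, stood at 14.7, 25.3, 23.9, 11.5, 29.2 and 19.4 CPM in cycling cells and at 36.8, 40.2, 50.7, 32.7, 35.9 and 39.0 in non-cycling ones, with no overlap (log2 fold -0.99 ± 0.24, SE). Nr1d1, a repressor of Arntl, was lower too (-1.06 ± 0.31), as was Tef, an output gene of the clock (-0.76 ± 0.20). Both an activator and its repressor were thus lower in the same cells.

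Of 21 DNA repair genes 18 were higher in this comparison and none lower, at a median log2 fold of 3.36. Of 13 p53 target genes 1 was lower and none higher.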
